A study of Homo sapiens with 30 samples.

Results

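The members described here are 5 genes of the sarcomere's elastic and cross-linking scaffold: TTN (titin), NEBL (nebulette), NRAP, MYOM1 (myomesin 1) and MYOM2 (myomesin 2). They were chosen by symbol, as 5 of the 39126 genes of the whole-cell count table and, by the same Ensembl identifiers, of the 55548 genes of the nuclear table, together with their skipped-exon events in 4 splicing tables. The study measured RNA in 30 samples in 10 groups of 3. Hues6 is a human embryonic stem cell line, used as wild type (WT) and as cells labelled QKI knockout (KO). QKI is an RNA-binding protein that regulates splicing. Whole-cell poly(A) RNA was taken from both genotypes before differentiation (D0) and on days 4 (D4) and 8 (D8) of differentiation to cardiomyocytes, and nuclear RNA from both at D8. Differentiation was started with the GSK3 inhibitor CHIR, at 1.5 uM in WT and 1.25 uM in KO, and with 1.5 ng/mL BMP4 in both, followed in both by the WNT inhibitor C59, and D8 cells were collected after beating was seen. The labels' protocol includes UV crosslinking at each stage. From D4 on, genotype and CHIR dose therefore cannot be told apart. The remaining 2 groups were 293T cells, a line from embryonic kidney, treated with siRNA that targets QKI or with a negative control. Nothing in the labels says whether the 3 libraries of a group are separate cultures, whether the KO is 1 clone or which part of QKI was deleted, so the p-values speak to the spread among these libraries alone.

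Titin is a giant protein that reaches from the Z-disc, where thin filaments of neighbouring sarcomeres are tied together, to the M-band at the middle of the thick filaments, and its springs set passive stiffness. Nebulette is the cardiac member of the nebulin family: its repeats bind actin near the Z-disc and its SH3 domain binds Z-disc proteins. The same gene gives LIM-nebulette, a shorter protein with its own start that shares the 3′ end. NRAP is an actin-binding scaffold of nascent myofibrils, and the myomesins cross-link titin and myosin at the M-band. Titin, nebulette and MYOM1 are all known for regulated splicing in heart muscle.

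The exons on which the splicing results turn are shown first, because their lengths and relations bear on what skipping removes. Each is printed 5′ to 3′ from the GENCODE v29 transcript, with its last 3 bases, the exon side of the 5′ splice site, in capitals. Coordinates are those of the authors' files (hg19, all 3 genes on the minus strand). TTN exons 11, 12 and 13 of the 363-exon transcript TTN-214 lie at chr2:179655435-179655572, chr2:179654705-179654842 and chr2:179654087-179654224. They are coding exons of the Z-repeat region, which binds alpha-actinin, and each holds 138 bases, or 46 whole codons.
TTN exon 11: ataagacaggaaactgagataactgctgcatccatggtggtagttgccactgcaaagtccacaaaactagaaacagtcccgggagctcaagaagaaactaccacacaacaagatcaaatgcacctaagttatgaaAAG
TTN exon 12: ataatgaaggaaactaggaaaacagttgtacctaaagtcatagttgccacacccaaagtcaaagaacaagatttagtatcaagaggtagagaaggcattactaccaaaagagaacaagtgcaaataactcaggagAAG
TTN exon 13: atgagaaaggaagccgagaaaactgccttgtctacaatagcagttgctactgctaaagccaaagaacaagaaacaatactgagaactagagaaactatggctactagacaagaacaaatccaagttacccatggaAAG
Laid side by side without gaps, exons 11 and 12 had 88 of 138 bases in common (63.8%), exons 11 and 13 had 90 (65.2%) and exons 12 and 13 had 89 (64.5%). All 3 end in AAG, as do 161 of the 362 exons before the last of TTN-214 (44.5%).

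NEBL exons 23 and 26 belong to the 28-exon nebulette transcript NEBL-202 and are shown because junctions at both differed at D8. Exon 23 (chr10:21102868-21102972, 105 bases, 35 codons) is absent from the annotated LIM-nebulette transcript NEBL-203. Exon 26 (chr10:21097439-21097588, 150 bases, 50 codons) lies between exons that both proteins share: exons 24, 27 and 28 of nebulette are exons 5, 6 and 7 of the 7 in LIM-nebulette.
NEBL exon 23: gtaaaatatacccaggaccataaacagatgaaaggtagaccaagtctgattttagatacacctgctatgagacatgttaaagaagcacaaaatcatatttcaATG
NEBL exon 26: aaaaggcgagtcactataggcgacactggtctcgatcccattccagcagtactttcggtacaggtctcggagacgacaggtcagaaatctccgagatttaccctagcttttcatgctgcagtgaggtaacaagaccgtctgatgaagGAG
Exon 23 is the only one of the 27 nebulette exons before the last that ends in ATG (3.7%), and 6 of the 27 end in GAG like exon 26 (22.2%). The exon that defines EH-myomesin, the embryonic heart form of MYOM1, is exon 18 of 38 in MYOM1-202 (chr18:3129230-3129517, 288 bases, 96 codons).
MYOM1 exon 18: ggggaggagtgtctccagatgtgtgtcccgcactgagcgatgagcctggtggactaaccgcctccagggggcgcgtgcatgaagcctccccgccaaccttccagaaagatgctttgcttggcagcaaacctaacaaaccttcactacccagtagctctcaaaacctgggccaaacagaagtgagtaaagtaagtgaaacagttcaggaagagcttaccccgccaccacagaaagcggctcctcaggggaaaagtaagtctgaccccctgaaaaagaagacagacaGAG

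The whole-cell libraries held 40001076 to 89948185 counts and the nuclear libraries 6549676 to 15030590. The targeted gene, QKI, stood at 293.3 ± 7.4 CPM in WT (counts over the library's TMM-scaled total, in the usual unit; mean ± SD, n = 3 here and throughout) and 39.4 ± 3.3 in KO at D0, and at 146.5 ± 8.9 and 78.2 ± 10 at D4. At D8 it stood at 323.9 ± 42 in WT and 335.2 ± 5.3 in KO, and in nuclear RNA at 159.5 ± 25 and 505.4 ± 31. The QKI count thus does not set the D8 libraries labelled KO below WT, and genotypes are given as labelled. Cardiomyocyte identity at D8 was checked with 8 marker genes, all above 1 CPM in both genotypes: their summed level ran from 11110 to 19140 CPM in WT and from 30810 to 35050 in KO, and in nuclear RNA from 4032 to 5283 and from 16500 to 19320. The 8 surface ectoderm and amnion markers summed to 672.2 to 1216 CPM in D8 WT and to 70.7 to 89.5 in D8 KO. The 5 epicardial markers summed to 52.1 to 87.8 and 11.2 to 13.9, most of it BNC1 (67.1 CPM in WT, 8.15 in KO). The rest of that list was low: TBX18 at 0.0831 and 1.18, WT1 at 1.76 and 1.40, TCF21 at 1.46 and 1.21 and ALDH1A2 at 0.960 and 0.995. The 8 smooth muscle and fibroblast markers summed to 1072 to 1237 CPM in D8 WT and 1816 to 2084 in D8 KO. The largest rises in KO were COL3A1 (11.3 and 334) and ACTA2 (414.9 and 674.7). MYH11 (6.91 and 4.75) and DCN (1.08 and 0.669) were lower in KO and the rest of that list higher. The 5 endothelial markers listed summed to 278.7 to 333.1 and 615.9 to 667.9, and the 6 endoderm markers to 134.7 to 211.5 and 279.7 to 422.6. Among the endoderm markers TTR was at 82.8 CPM in WT and 215.9 in KO. AFP was lower in KO (43.1 and 27.8) and the rest of that list higher. Most of the endothelial sum was KDR (173.6 CPM in WT, 480.2 in KO). CDH5 was at 40.6 and 41.3, PLVAP at 56.6 and 80.7, TEK at 31.0 and 44.7 and CLDN5 at 0.919 and 3.44. The 6 pluripotency markers summed to 1212 to 1551 and 523.2 to 603.9. Most of that sum was LIN28A (1240 and 460.2). TDGF1 was higher in KO (16.4 and 57.7) and the rest of that list lower. The D8 groups thus differ in these marker levels, whose part in the D8 results below was not tested, and in bulk RNA more cells of a type cannot be told apart from more RNA per cell.

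**Figure D1:**
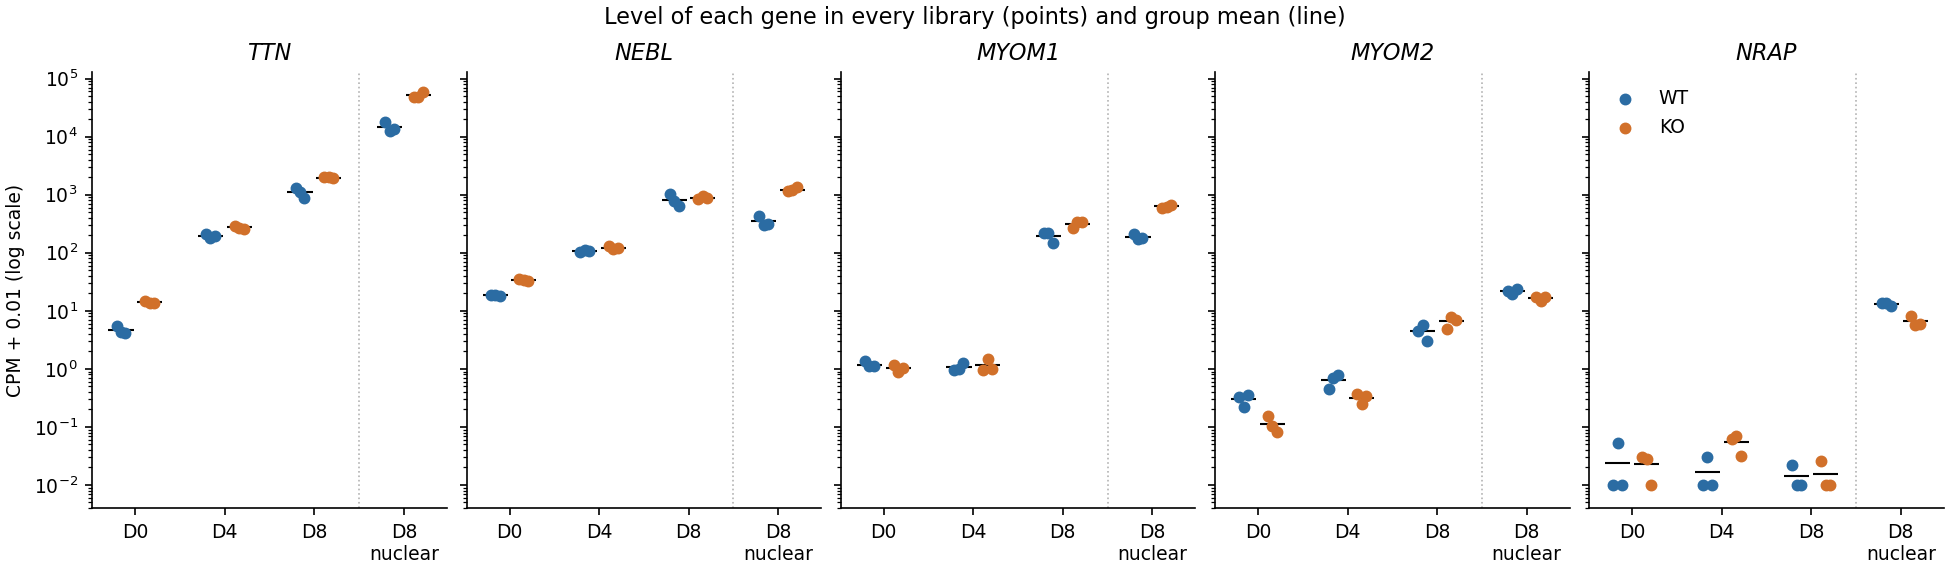
Level of the 5 genes in every library, as CPM + 0.01 on a log axis, for WT and KO at D0, D4 and D8 (whole-cell RNA) and at D8 in nuclear RNA, which was sequenced and scaled separately (right of the dotted line); points are libraries and lines are group means of 3. TTN climbs over all 3 days, MYOM1 stays near 1 CPM until D4 and rises at D8, and NRAP stays at 0 to 3 counts in whole-cell RNA.

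TTN rose most of the 4 tested members from D0 to D4. At D0 its level was 5.41, 4.29 and 4.19 CPM in the WT libraries and 14.5, 13.6 and 13.8 in KO. At D4 it was 212.8, 179.3 and 193.3 in WT and 288.6, 270.6 and 259.1 in KO. At D8 it was 1283, 1119 and 871.6 in WT and 1982, 1987 and 1958 in KO. The 6 groups stood in the order of day, with KO above WT on each day, and no group's range overlapped another's. In WT, TTN rose by 5.40 ± 0.13 on the log2 scale (± SE) from D0 to D4 and by 2.48 ± 0.11 from D4 to D8 (edgeR quasi-likelihood test, adjusted p = 1.2e-18 and 2.1e-14). In KO the rises were 4.29 ± 0.12 and 2.86 ± 0.11 (edgeR adjusted p = 5.4e-18 and 1.7e-15).

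NEBL, already present in undifferentiated cells, rose at both steps. Its level was 18.8, 19.0 and 18.3 CPM in D0 WT and 35.7, 34.3 and 32.5 in D0 KO, so the genotypes were apart before differentiation. At D4 it was 104.4, 111.6 and 108.2 in WT and 130.2, 113.8 and 119.6 in KO, with no overlap. At D8 it was 1031, 787.4 and 644.1 in WT and 848.5, 958.5 and 873.5 in KO, and the KO range lay inside the WT range. NEBL rose in WT by 2.53 ± 0.12 and then 2.92 ± 0.11 on the log2 scale, and in KO by 1.83 ± 0.11 and 2.88 ± 0.11 (edgeR adjusted p = 2.3e-14 and 4.2e-15 in WT, 2.1e-12 and 3.2e-15 in KO).

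Of the M-band genes, MYOM1 rose after D4, and MYOM2 rose at both steps from a low level. MYOM1 was at 1.33, 1.11 and 1.09 CPM in D0 WT and at 1.16, 0.867 and 1.00 in D0 KO, and its 4 groups at D0 and D4 overlapped, with no change from D0 to D4 called in WT (-0.17 ± 0.27) or KO (0.16 ± 0.27; edgeR adjusted p = 0.58 in each). At D8 it was at 220.8, 215.8 and 145.2 CPM in WT and at 263.4, 341.9 and 338.9 in KO. The rise from D4 to D8 was the steepest of the 4 genes tested, 7.53 ± 0.19 on the log2 scale in WT and 8.12 ± 0.19 in KO (edgeR adjusted p = 4.6e-18 and 9.5e-19), or 184.2-fold and 278.5-fold. MYOM2, the myomesin of mature fast and cardiac muscle, stayed low throughout: 0.315, 0.214 and 0.344 CPM in D0 WT (46 counts in all), 0.145, 0.0922 and 0.0705 in D0 KO (16 counts), 0.431, 0.686 and 0.768 in D4 WT and 0.361, 0.242 and 0.327 in D4 KO. At D8 it reached 4.53, 5.74 and 3.01 CPM in WT and 4.87, 7.89 and 6.97 in KO, overlapping ranges. From D4 to D8 it rose by 2.83 ± 0.26 in WT and 4.39 ± 0.28 in KO (edgeR adjusted p = 4.2e-09 and 1e-11). From D0 to D4 it rose in KO by 1.61 ± 0.52 (edgeR adjusted p = 0.0076, and between 0.000176 and 0.0366 over 9 alternatives). The rise in WT over that step, 1.07 ± 0.37 (edgeR adjusted p = 0.013), was 0.90 without WT D0 replicate 2 and 0.91 without WT D4 replicate 3, and neither was called (edgeR adjusted p = 0.0501 and 0.0532, in a range over alternatives of 0.000608 to 0.0532).

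Against the background, 81% of the 21761 genes tested were called in WT from D0 to D4 and 68.8% from D4 to D8 (82.6% and 75% in KO), with 42% and 35% called higher in WT and 44.1% and 36.1% in KO. The 3 of 4 and then 4 of 4 tested members called, all higher and with the same counts in WT and KO, are few genes against such common calls. Per kilobase of annotated exon, NEBL stood highest of the 5 genes in all 6 whole-cell groups, at 60.1 CPM per kb in D8 WT and 65.4 in D8 KO, followed at D8 by MYOM1 (29.5 and 47.9), TTN (9.17 and 16.6) and MYOM2 (0.627 and 0.931). TTN's 118976 annotated exon bases include many that heart transcripts skip, so its level per kb is a low estimate. Reads also fell unevenly along TTN in the D8 splicing data described below. Inclusion reads summed to 222 and 248 in the 2 arms at exon 20, and to 9247 and 14082 at exon 362 near the 3′ end. The part of this in the level per kb was not tested.

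NRAP was at or near 0 in whole-cell RNA: 9 of the 18 libraries held no count of it and the other 9 held 1 to 3, 14 counts in all. A count of 0 allows up to 0.0334 CPM in the deepest library and 0.075 in the shallowest, for counting error only, and NRAP did not pass the filter on low counts. No fold between groups is given for it. In the 6 D8 whole-cell libraries NRAP held 1 count in WT and 1 in KO. Nuclear D8 RNA, given further on, did hold NRAP reads.

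In KO against WT the members did not move as 1 block. TTN was higher in KO on every day: by 1.59 ± 0.13 on the log2 scale at D0 (3.01-fold), 0.48 ± 0.10 at D4 (1.40-fold) and 0.86 ± 0.10 at D8 (1.81-fold; edgeR adjusted p = 5.2e-09, 0.001 and 4.6e-07), with all 3 KO libraries above all 3 WT libraries each time. NEBL was higher in KO at D0 by 0.87 ± 0.11 (1.83-fold, edgeR adjusted p = 3.8e-06). At D4 its difference was 0.17 ± 0.11 and at D8 0.12 ± 0.11, and neither passed (edgeR adjusted p = 0.28 and 0.34). The D8 value rests on single libraries: without WT replicate 2 it was 0.32 and called (edgeR adjusted p = 0.00179), and without WT replicate 4 it was -0.02 (0.847, in a range over alternatives of 0.00179 to 0.965).

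MYOM1 was higher in KO at D8, where it was well above 1 CPM: the difference was 0.70 ± 0.12 (1.62-fold, edgeR adjusted p = 6.7e-05) with no overlap of the libraries, against -0.23 ± 0.27 at D0 and 0.10 ± 0.28 at D4 (0.53 and 0.83). MYOM2 was lower in KO at D0, by 1.53 ± 0.53 on the log2 scale (log2 -1.53, edgeR adjusted p = 0.024), and its D4 difference of -0.98 ± 0.37 missed the threshold (0.052). At D8 it was higher in KO by 0.58 ± 0.20 (1.49-fold, edgeR adjusted p = 0.019) with overlapping libraries. The MYOM2 calls are fragile: at D0 the call was lost without WT replicate 1 (-1.48), WT replicate 3 (-1.39), KO replicate 2 (-1.47) or KO replicate 3 (-1.31), and at D8 without WT replicate 4 (0.36), KO replicate 2 (0.42) or KO replicate 4 (0.54). The D4 difference was called without WT replicate 1 (-1.21).

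These counts of called members, 3 of 4 at D0, 1 of 4 at D4 and 3 of 4 at D8, stand beside 42.3%, 28.4% and 55.6% of all genes tested (called higher, 21.4%, 16.3% and 29.4%; called lower at D0, 20.9%). Calls at D8 were thus common among all genes. The cardiomyocyte marker sums given above were higher in every D8 KO library than in every D8 WT library, and at D4 they ran from 156.6 to 195.4 CPM in WT and from 194 to 290.7 in KO. At D0 they ran from 13.1 to 14.8 CPM in WT and from 24.4 to 26.5 in KO, while the 6 pluripotency markers summed to 6440 to 6748 and 6766 to 7316. The 8 smooth muscle and fibroblast markers summed at D0 to 228.8 to 230.2 CPM in WT and 408.5 to 443.4 in KO. Most of that sum was TAGLN (116.6 and 235) and COL1A1 (78.3 and 139.7). ACTA2 (1.82 and 1.70) and PDGFRB (12.2 and 11.7) were slightly lower in KO. The 5 endothelial markers listed summed to 200.1 to 221.7 and 282.8 to 315.5. Most of that endothelial sum was KDR (200.3 CPM in WT, 273.8 in KO), with TEK at 5.83 and 25.3 and CDH5 at 1.545 and 1.46. The part of these shifts in the TTN and NEBL differences was not tested.

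**Figure D2:**
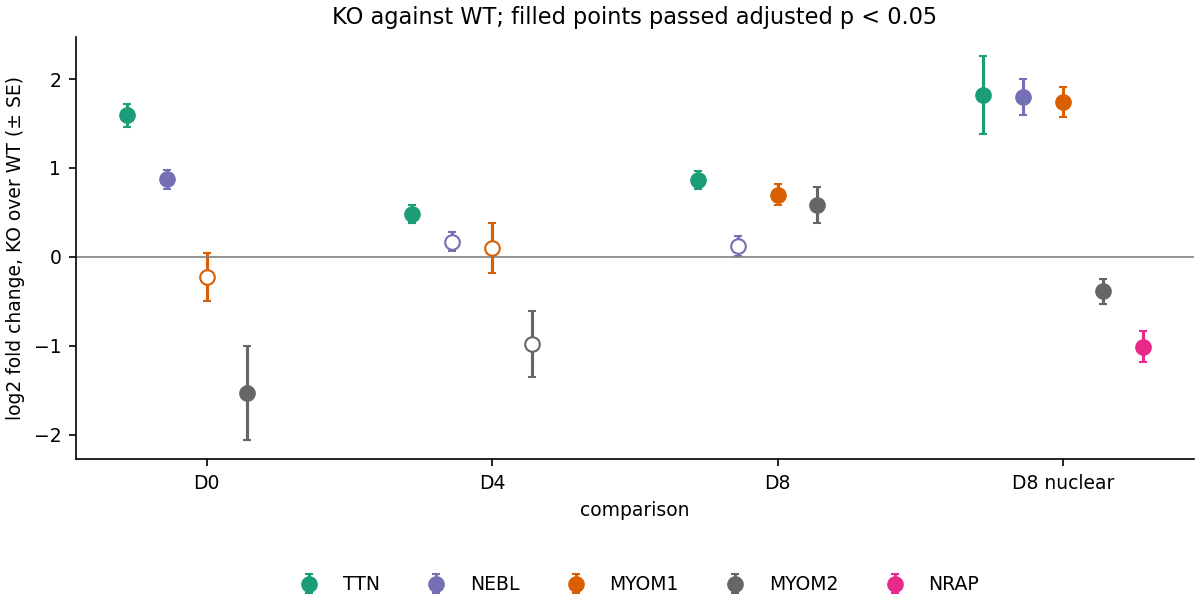
Difference between KO and WT for each gene on the log2 scale (vertical axis, ± SE from edgeR) in the 4 comparisons of 3 against 3 libraries; filled points passed an adjusted p of 0.05. TTN lies above 0 in all 4, NEBL is near 0 at D4 and D8 but not at D0 or in nuclear RNA, and MYOM2 and NRAP lie below 0 in nuclear RNA.

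The KO effect itself changed between days. The effect on TTN was smaller at D4 than at D0 by 1.11 ± 0.16 on the log2 scale (interaction -1.11, edgeR adjusted p = 1.7e-05), and that on NEBL by 0.71 ± 0.16 (interaction -0.71, 0.0012). From D4 to D8 the MYOM2 effect went up by 1.56 ± 0.42 (edgeR adjusted p = 0.0052) and the TTN effect by 0.37 ± 0.14 (0.042). The last of these is at the edge of the threshold: it ranged from 0.23 to 0.51 when single libraries were left out and was lost for 9 of the 12 libraries. The MYOM1 interaction from D4 to D8 was 0.60 ± 0.30 and that of NEBL -0.04 ± 0.15 (edgeR adjusted p = 0.12 and 0.85). Of all genes tested, 39.1% and 41.5% were called in the 2 interactions (19.1% lower in the first, 19.6% higher in the second).

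Nuclear RNA gave another order of genes. TTN took 1.769, 1.573 and 1.662% of all nuclear counts in WT and 4.351, 3.661 and 5.165% in KO, against a mean of 0.115% and 0.191% of the whole-cell counts at D8. Per kilobase of annotated exon its nuclear level was 123.0 CPM per kb in WT and 432.9 in KO, above MYOM1 (28.5 and 95.4) and NEBL (25.8 and 89.9), whereas in whole-cell RNA TTN stood below both. The nuclear table was normalised separately, so levels across the tables are set side by side without a test. Reads fell unevenly along TTN in the D8 splicing data, as given above, and the part of this in the order of genes was not tested.

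In KO against WT nuclear RNA, TTN was higher by 1.82 ± 0.44 on the log2 scale (3.52-fold), NEBL by 1.80 ± 0.20 (3.49-fold) and MYOM1 by 1.74 ± 0.17 (3.35-fold; edgeR adjusted p = 0.00087, 3.7e-09 and 4.4e-10), with no overlap of libraries. NEBL was at 435.1, 302.9 and 316.9 CPM in nuclear WT and at 1158, 1194 and 1330 in nuclear KO, while in whole-cell RNA the D8 groups overlapped. MYOM1 was at 213.9, 169.4 and 178.4 CPM in WT and 599.2, 611.1 and 670.1 in KO. NRAP was detected in this table, with 121, 110 and 115 counts in WT (13.04 ± 0.88 CPM) and 74, 64 and 61 in KO (6.55 ± 1.5), lower in KO by 1.01 ± 0.17 on the log2 scale (log2 -1.01, edgeR adjusted p = 1.1e-05). MYOM2 was at 21.8, 19.5 and 23.9 CPM in WT and 17.6, 14.9 and 17.4 in KO, a log2 difference of -0.39 ± 0.14 (edgeR adjusted p = 0.014).

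All 5 members were called in nuclear RNA, where 64% of the 30481 genes tested were called (31.2% higher, 32.8% lower) and the median log2 difference of all genes was -0.27. Relative to that median the MYOM2 difference is small. Its call was lost without KO replicate 1 (-0.34), WT replicate 1 (-0.36) or WT replicate 3 (-0.36). Scaled to total counts, the genes called in nuclear RNA were 25.6% higher, and with DESeq2 they were 90.8% higher, beside 48.7% here; the 3 higher and 2 lower members kept their directions in every alternative. In nuclear RNA the 9 skeletal muscle markers had a summed level between 152.5 and 195.3 CPM in WT and between 433.5 and 516.7 CPM in KO, with 8 and 6 of them above 1 CPM. Most of that sum was CKM, muscle creatine kinase (117.6 CPM in WT, 436.6 in KO). ACTN3 was also higher in nuclear KO (9.48 and 23.2), and the rest of the list was lower. In whole-cell D8 RNA, CKM was at 183.6 CPM in WT and 487 in KO, and ACTN3 at 26.2 and 42.1, each above its nuclear level. MYF5 and MYOD1, which define skeletal muscle precursors, had 50 and 26 counts in nuclear WT and 24 and 22 in nuclear KO, against 0 and 1 in whole-cell D8 WT and 0 and 0 in D8 KO. Genes of other lineages also stood higher in the nuclear table than in the whole-cell table: in D8 WT, NANOG was at 2.69 CPM beside 0.0684, TBX18 at 9.56 beside 0.0831 and DCN at 20.5 beside 1.08, examples chosen after their values were seen. The part of these genes in the NRAP and MYOM2 counts was not tested.

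TTN overlaps an antisense gene, TTN-AS1, and the strand setting of the counting was not given in any source at hand, so reads of the pair may not be told apart. TTN-AS1 was at 8.75, 10.4 and 12.5 CPM in D8 WT and at 6.89, 5.67 and 4.51 in D8 KO, lower in KO by 0.89 ± 0.15 on the log2 scale (log2 -0.89, edgeR adjusted p = 4.3e-05), the reverse of TTN. At D0, TTN-AS1 was at 9.59 ± 1.9 CPM in WT and 11.3 ± 0.48 in KO, beside TTN at 4.63 ± 0.68 and 14.0 ± 0.46. The part of antisense reads in the D0 difference of TTN was not tested. NEBL-AS1 held 34 and 61 counts in all in D8 KO and D8 WT.

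The splicing of these genes was read from the authors' deposited tables, which give junction reads and an inclusion level from 0 (always skipped) to 1 (always included) for each exon in 2 arms of 3 libraries. Neither arm is named, so differences are given as second minus first arm, with no genotype. A call needed an FDR from the authors below 0.05, arms differing by 0.1 or more, and an average of 10 or more junction reads per library in both arms. At D8 the authors' deposited table held 66 NEBL events, 34 of TTN, 14 of MYOM1 and 1 of MYOM2, of which 54, 17, 14 and 0 had enough reads. Of these, 3 NEBL events and 2 TTN events were called, all lower in the second arm, where 1.02% of the 79117 events with enough reads were called in that direction (2.23% in either). At D4 the 11 NEBL and 3 TTN events with enough reads gave no call (background 1.1%, of which 0.539% lower and 0.558% higher in the second arm) and differed by -0.083 to 0.03 and -0.002 to 0.006. No member event had enough reads at D0, and 1 of NEBL did in 293T, uncalled (backgrounds 2.37%, with 1.31% lower, and 0.451%). NRAP had no event that was analysed here.

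In titin, the Z-repeat exons printed above were included in the first arm and nearly absent from the second. Exon 11 had inclusion levels of 0.615, 0.714 and 0.697 in the first arm and 0.014, 0 and 0 in the second, in the authors' deposited table (difference -0.671, FDR listed as 0). Exon 13 had 0.688, 0.724 and 0.767 against 0.029, 0.192 and 0.059 (difference -0.633, FDR listed as 0). No value of one arm reached the other's range. Both events share the same skipping junction, from exon 10 to exon 14, with 10, 4 and 5 reads in the first arm and 34, 21 and 32 in the second, so they are not independent. Exon 12 had levels of 0.459, 0.63 and 0.442 against 0, 0 and 0 (FDR 1.28e-08 in the authors' deposited table), but the second arm was under the read minimum and the event was not called. With limma on the 3 inclusion levels per arm, exon 13 was not called (adjusted p = 0.174, in a range over alternatives of 0 to 0.463), and with 1 value of an arm left out limma called 1 to 2 of the 5 member events. At D4 exons 11 and 13 had too few reads to compare. The remaining 15 TTN events with enough reads at D8 differed by -0.066 to 0.002 in the authors' deposited table. Among them, exons 45 and 46 were near 0 in both arms, and exons 357 to 362, which encode the M-band end, were near 1 in both.

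In nebulette, exon 26 was included at 0.637, 0.637 and 0.584 in the first arm and at 0.01, 0.019 and 0.03 in the second (difference -0.6, FDR listed as 0 in the authors' deposited table). Its inclusion reads went from 1709, 1156 and 1108 to 9, 22 and 30, while the junction that joins exon 24 directly to exon 27 had 487, 329 and 395 reads in the first arm and 434, 572 and 492 in the second. Scaled by the arms' reads summed over all events, that junction was 1.51 times as high in the second arm. It is also annotated in LIM-nebulette, so skipping of exon 26 within nebulette cannot be told apart from LIM-nebulette reads. Exon 25 lies between exons 24 and 26, whose direct junction had 2, 4 and 0 reads against 0, 0 and 0. The levels of exon 26 thus rest almost wholly on its junction to exon 27. Exon 23, measured against the junction from LIM-nebulette's own exon 4 to exon 24, stood at 0.928, 0.912 and 0.877 against 0.363, 0.41 and 0.48 (difference -0.488, FDR listed as 0 in the authors' deposited table). Here too the inclusion reads went down, from 2081, 1323 and 1397 to 89, 100 and 85, and the LIM-nebulette junction had 81, 64 and 98 reads against 78, 72 and 46. Against junctions that pass exon 23 from earlier nebulette exons, its level was 0.982, 0.985 and 1 in the second arm in one event and 0.918, 1 and 0.955 in another, in the authors' deposited table. The low level of exon 23 in the second arm is therefore relative to LIM-nebulette junctions. No event of exons 23 or 26 from the D0, D4 or 293T tables was analysed here. Exon 25, like exon 26, is in nebulette only. At D4 it had 0, 3 and 4 inclusion reads in the first arm and 0, 0 and 0 in the second. The junction from exon 24 to 27 had 124, 166 and 125 reads there, against 152, 140 and 111. LIM-nebulette shares that junction, so skipping of exon 25 in nebulette cannot be told apart from LIM-nebulette reads. At D8 exon 25 had 3228, 2318 and 2246 inclusion reads in the first arm and 58, 66 and 58 in the second. Against the junction from exon 24 to 26, its level was 0.999, 0.997 and 1 against 1, 1 and 1, in the authors' deposited table.

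**Figure D3:**
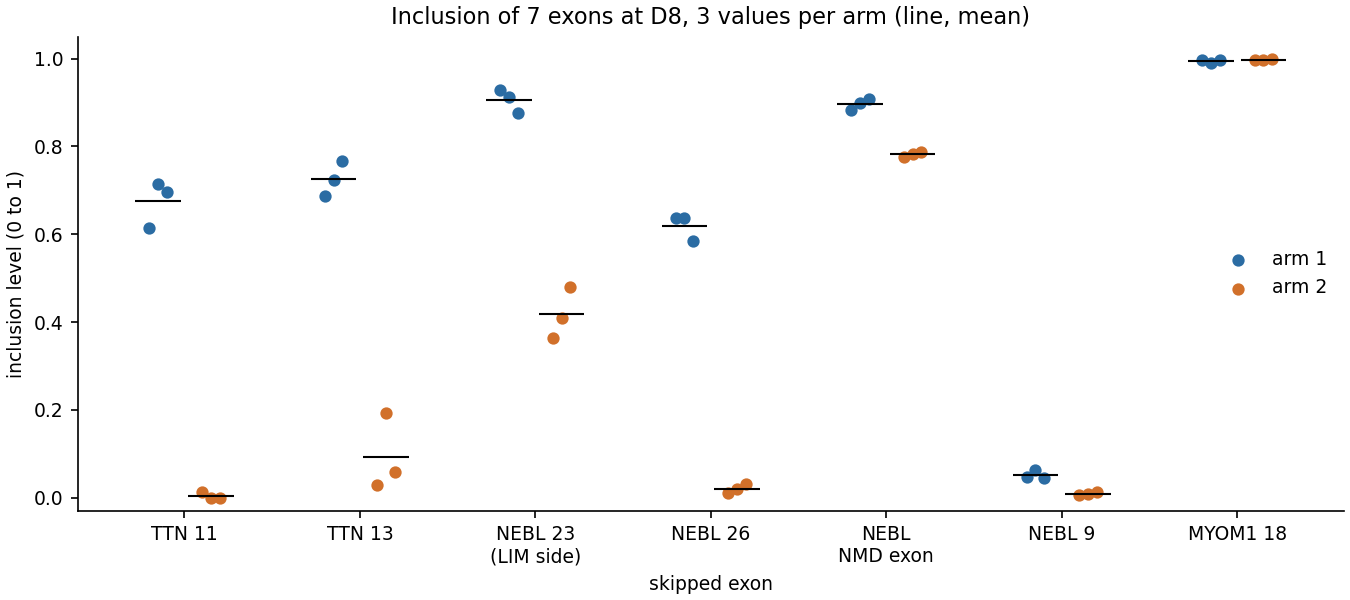
Inclusion level (vertical axis, 0 to 1) of 7 exons at D8, 3 values per arm with the mean as a line, from the authors' deposited table. TTN exons 11 and 13 and NEBL exons 23 and 26 are lower in arm 2 with no overlap. The event of the 131-base NEBL exon (NMD exon) differs by 0.115, with reads mostly at a junction shared with a longer form. NEBL exon 9 is rarely included, and MYOM1 exon 18 is near 1 in both arms.

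The junction reads of NEBL could be followed along most of the nebulette transcript, because the events of the authors' deposited table overlap: junctions were read as skipping reads or as inclusion reads less a known junction. Junctions were scaled by each arm's junction reads summed over all events, where a read can be counted in more than 1 event. That sum was 0.821 times as high in the second arm as in the first. On this scale, the 16 main junctions from exon 4 to exon 21 were all higher in the second arm. The ratio of second to first arm ran from 2.88 to 3.17 there, with a median of 3.01. The ratio was then 1.75 at the junction from exon 21 to 22, 0.994 from 22 to 23, 0.07 from 23 to 24 and 0.019 from 26 to 27. The junction from exon 13 to 14, for example, had 1930, 1276 and 1307 reads in the first arm and 3524, 4348 and 3169 in the second. That from 23 to 24 had 2074, 1323 and 1397 in the first and 89, 100 and 85 in the second. The arms thus cross between exons 22 and 24, with more nebulette 5′ junctions and far fewer 3′ junctions in the second arm.

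**Figure D4:**
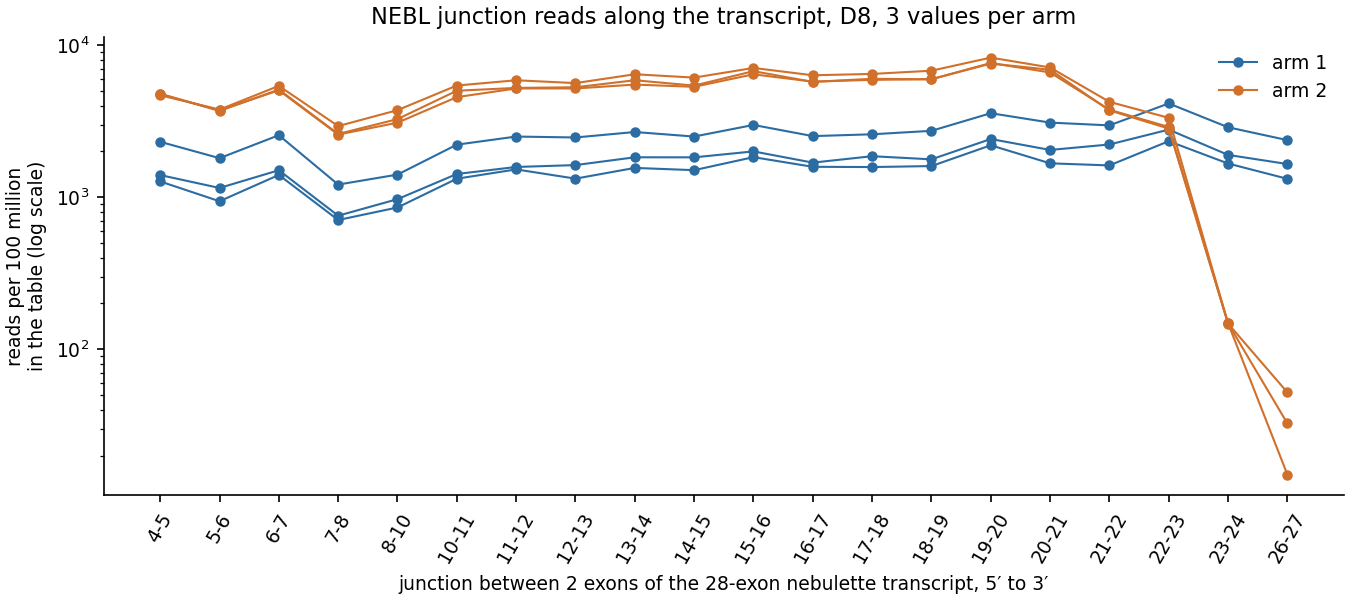
NEBL reads at 20 main junctions of the 28-exon nebulette transcript at D8 (horizontal axis, 5′ to 3′), 3 values per arm. Reads are scaled to an equal sum per library over all events of the authors' deposited table (vertical log axis). The second arm lies above the first up to exon 21, meets it at the junction from exon 22 to 23 and falls far below it after exon 23.

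Of the reads that joined exon 22 to exon 23, the number that had a counterpart from exon 23 to exon 24, as a ratio of 2 junctions, was 0.697, 0.682 and 0.713 in the first arm and 0.051, 0.044 and 0.052 in the second. This ratio was formed after the values were seen and is given without a test; 3 values against 3 cannot give an exact permutation p below 0.1. GENCODE v29 lists a longer form of exon 23, of 304 bases, as the last exon of 4 NEBL transcripts (NEBL-205, NEBL-207, NEBL-208 and NEBL-211), which share the junction from exon 22 to 23 with nebulette. Skipped-exon tables do not count reads that run on into such a last exon, so its use was not tested. In MYOM1, on the same scale, the 14 exon events had inclusion reads 1.42 to 1.81 times as high in the second arm as in the first. In TTN the ratio was 1.36 to 1.86 for exons 15 to 48 and 1.71 to 1.85 for exons 357 to 362.

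The third called NEBL event concerns a 131-base exon at chr10:21107633-21107763, between nebulette exons 20 and 21, which does not keep the reading frame and is annotated in NEBL-208, a transcript marked for nonsense-mediated decay. Measured against a rare junction that joins exon 16 to exon 21, its level was 0.883, 0.9 and 0.909 in the first arm and 0.777, 0.783 and 0.788 in the second (difference -0.115, FDR 0.000109 in the authors' deposited table). Measured against the main junction from exon 20 to exon 21, it was rare in both arms. Its level was 0.059, 0.072 and 0.08 against 0.05, 0.051 and 0.051 (difference -0.02, FDR 0.0169, not called). Inclusion reads on this measure were 280, 220 and 244 against 421, 518 and 427. On the exon 16 measure they were 273, 215 and 239 against 348, 425 and 342. Most came from the junction to exon 21, which an 813-base form in NEBL-212, a retained-intron transcript, shares. Reads beyond those of the exon 16 measure were few in the first arm and more in the second. The lower level therefore does not show less use of the 131-base exon itself. At D4, measured against the junction from exon 20 to exon 21, the level was 0.371, 0.343 and 0.21 in the first arm. It was 0.213, 0.258 and 0.203 in the second, and the difference of -0.083 in the authors' deposited table was not called. These levels are above those at D8 but rest almost wholly on the shared junction. D4 inclusion reads were 33, 23 and 26 against 38, 46 and 29 on this measure. On the exon 16 measure they were 31, 22 and 26 against 37, 47 and 27. More frequent use of the 131-base exon at D4 is therefore not shown. The tables of different days were not tested against each other. NEBL exon 9, a rarely used nebulin repeat exon of 105 bases, was included at 0.047, 0.062 and 0.044 in the first arm and at 0.007, 0.008 and 0.012 in the second at D8 (difference -0.042, FDR listed as 0 in the authors' deposited table), under the size asked for a call.

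The EH exon of MYOM1, printed above, was included at 0.997, 0.991 and 0.998 in the first arm and at 0.997, 0.998 and 0.999 in the second, in the authors' deposited table. D8 cells of both arms thus held almost only the EH-myomesin form, and all 14 MYOM1 events differed by no more than 0.003 in size.

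The genes around these 5 were described by lists of sarcomere neighbours and splicing regulators, with the background of calls given above. Of 15 Z-disc and nebulin-family neighbours, 12 were higher in KO and 3 lower at D8 (median log2 difference 0.92, beside 0.01 over all genes), none was called at D4, where 28.4% of all genes were, and 2 were higher and 2 lower at D0. ACTN2, the alpha-actinin that binds titin's Z-repeats, was among the 3 lower, at 401.8 ± 94 CPM in WT and 95.5 ± 9.1 in KO (log2 -2.07 ± 0.12, edgeR adjusted p = 1.6e-11). MYPN, which links nebulette to alpha-actinin, was at 1.67 ± 0.60 and 7.37 ± 1.2 (2.15 ± 0.22, 6e-08). Of the 11 thick filament and M-band genes, 8 were higher and none lower at D8 (median 1.12). The largest changes were SPEG, a striated muscle kinase (88.4 ± 9.0 CPM in WT, 264.9 ± 28 in KO), and MYBPC3, the cardiac myosin-binding protein C (211.7 ± 39 and 595.3 ± 62).

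Of the 10 tested thin filament genes (of 11), 7 were higher and 1 lower at D8 (median 0.95), with the troponins TNNI1 at 870.2 ± 210 CPM in WT and 2521 ± 410 in KO and TNNT2 at 970.3 ± 160 and 2582 ± 300. At D4, 3 were higher and 4 lower, led by TNNI3 (log2 -1.67 ± 0.17) and the skeletal actin ACTA1 (log2 -1.50 ± 0.17), and at D0, 4 were higher and 1 lower. Of 14 titin ligands and turnover genes, 10 were higher and 1 lower at D8 (median 1.09): HSPB7, a small heat shock protein, stood at 337.4 ± 54 CPM in WT and 1011 ± 120 in KO, and TRIM63, a ubiquitin ligase bound to titin's M-band end, at 8.56 ± 2.0 and 21.9 ± 4.2. At D4, 7 were higher and none lower. In nuclear RNA, 13 of the 14 were higher and none lower, as were 11 of the 12 splicing regulators, QKI itself among them. Of the 11 thin filament genes, 9 were higher and 1 lower there. Of the 11 thick filament and M-band genes, 9 were higher and 1 lower, and of the 15 Z-disc neighbours, 12 and 2.

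Among those 12 splicing regulators of sarcomere exons, 7 were higher and 2 lower in KO at D8 (median 0.47). The largest of these changes were RBFOX1, at 9.02 ± 2.1 CPM in WT and 29.8 ± 5.7 in KO, and MBNL1, at 9.78 ± 0.46 and 21.9 ± 2.4 (log2 1.72 ± 0.14 and 1.16 ± 0.10, edgeR adjusted p = 1.9e-09 and 5.4e-09). In nuclear RNA the largest were RBM24, at 65.3 ± 15 and 320.5 ± 31, and RBM20, the regulator of titin's spring exons, at 49.4 ± 9.5 and 184.3 ± 15 (log2 2.29 ± 0.17 and 1.90 ± 0.15). QKI and PTBP2 led the list at D0 (log2 -2.90 ± 0.10 and 0.59 ± 0.06), and QKI and RBFOX1 at D4 (log2 -0.90 ± 0.09 and 0.74 ± 0.17).

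Genes whose level followed a member most closely over the 18 whole-cell libraries were sought by Pearson r of log2(CPM + 1) among 15415 genes; these points share days and genotypes, and the values are descriptive. For MYOM1 the closest was CSRP3, a Z-disc stretch-sensing LIM protein (r = 0.999), then SYNPO2L and A2M (0.998 each). For NEBL it was the cardiac actin ACTC1 (0.997), then DGKI and MYOCD, the cofactor of serum response factor (0.993 and 0.992). For TTN the closest were RRAGB, HSF1 and FAM109A (0.993, 0.993 and 0.993), and for MYOM2 RASA4CP, UBE2D4 and CKMT2 (0.989, 0.989 and 0.988). Between members, r was 0.979 for MYOM1 and MYOM2, 0.968 for TTN and NEBL and 0.769 for TTN and MYOM1. With a pseudocount of 0.1 the closest gene was unchanged for MYOM1 and NEBL and became FAM198B for TTN and TCAP for MYOM2.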

How the data were processed

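The authors deposited read counts per gene, not normalised, in 2 tables (18 whole-cell and 6 nuclear libraries), and 4 rMATS-style tables of skipped exons with junction reads, inclusion levels (a score from 0 to 1) and p-values with FDR. Per the submitters' processing notes, the tools were STAR, featureCounts, cutadapt, UMI-tools and DESeq, with hg19; no version, annotation or strand setting was stated there.

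Gene counts entered edgeR 4.0.16 under R 4.3.3 (filterByExpr, TMM, two-sided quasi-likelihood test, 1 mean per group). A call needed an adjusted p (Benjamini-Hochberg, all genes tested) below 0.05. The 18 whole-cell libraries shared 1 fit (21761 genes) and the nuclear libraries had their own (30481). No 2 libraries held identical values. The fits were tested on simulated data. Alternatives were total counts, DESeq2 1.42.0, no filter, only the 6 libraries compared, a replicate block, leaving out libraries, and, for exons, limma 3.58.1 on the logit of inclusion (bounded at 0.01), 20 reads and a difference of 0.2. Exons were identified in GENCODE v29 (GRCh38) by exon and intron lengths, and only hg19 coordinates from the files are printed.

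Members and lists were chosen with earlier results of these data known, so the counts of list genes are descriptions. Named are the members, QKI, the 2 largest called genes with at least 1 CPM per list and KO comparison (not all printed), 3 pattern neighbours per member, and called events. The walk along NEBL junctions and the ratio at exon 23 were added after the data were seen.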

Additional observations from a re-analysis of the deposited data

Results flagged for a closer look

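The difference between KO and WT in 3 members changed between days by the interaction test in edgeR. For TTN the effect was smaller at D4 than at D0 (interaction of -1.11 on the log2 scale), and so was that for NEBL (-0.71). From D4 to D8 the TTN effect increased by 0.37 and the MYOM2 effect by 1.56. CHIR dose differs between the genotypes at D4 and D8 but not at D0, so genotype and dose cannot be told apart in the change from D0 to D4. No group holds more than 3 libraries, so single libraries were not screened as outliers.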

How the results depend on the processing

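The members called at D4, 1 in the reported fit (TTN), were 2 with DESeq2, without a filter and with the replicate block (MYOM2 added), and 3 with only the 6 libraries compared (NEBL added too). The cause of each move was not tested. The interaction from D4 to D8 gave 2 called members, 1 with total counts (TTN 0.17, adjusted p = 0.345), and 3 with DESeq2 or no filter (MYOM1 added, 0.64 and 0.58, adjusted p = 0.0492 and 0.00635). With single libraries left out, called members were 1 to 2 at D4, 2 to 3 at D0, 2 to 4 at D8, 4 to 5 in nuclear RNA and 1 to 2 for that interaction. Called D8 exon events, 5 by the authors' FDR, were 4 with limma (TTN exon 13 lost, adjusted p = 0.174) and 1 to 2 when limma left out 1 value of an arm, with all 5 differences below 0. Directions turned for 4 differences that were not called as reported: NEBL at D8 (-0.01 with total counts, -0.02 to 0.32 with single libraries left out), MYOM1 at D4 (-0.13 to 0.23), MYOM1 in KO from D0 to D4 (-0.06 to 0.29) and the NEBL interaction from D4 to D8 (-0.19 to 0.16, with 0.01 without KO D4 replicate 1). MYOM2 at D8 was not called with total counts (0.44), DESeq2 (0.59) or only the 6 libraries (0.53), nor in nuclear RNA with DESeq2 (-0.07) or no filter (-0.21). Same-numbered WT and KO libraries correlated in their deviations at -0.222 to 0.339, and differently numbered ones at -0.386 to 0.325. Deviations from a mean of 3 libraries are tied to each other, so these values cannot decide whether the numbers pair libraries. The replicate block changed no KO call of a member other than MYOM2 at D4 (-0.96, edgeR adjusted p = 0.0307, in a range over alternatives of 0.00532 to 0.167).

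Total counts moved the median of all genes from -0.27 to -0.72 in nuclear RNA and from 0.01 to -0.12 at D8, where 37.6% of called genes were then higher in KO, beside 52.9%. At D4 73.8% were higher, beside 57.6%. In the interactions the share was 62.9%, beside 51.1%, and 24.9%, beside 47.2%. DESeq2 called 11049 genes in nuclear RNA, beside 19515. Low counts limit MYOM2 before D8 and NRAP throughout.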
